A study of Rattus norvegicus with 30 samples.

Results

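The genes of DNA replication and of the passage from G1 into S phase were followed in endothelium-enriched lung cells of rats that had Glenn or sham surgery and 1 of 3 vitamin A diets. The members are rows of the expression table whose gene name stands in a list of 39, a rule that uses no measured value, although the list was chosen with earlier results of these data known. Of these, 38 were found among 30562 rows and all 38 passed the filter on low counts, which left 16171 genes. E2f1 is not analysed here.

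RNA was sequenced from lung cells of wild-type rats that had been sorted with microbeads for CD31, which marks the surface of endothelium, 3 weeks after the operation. The Glenn operation joins the superior caval vein to the pulmonary artery, so that blood reaching that lung has not first passed through the liver. The 30 libraries form 6 groups of 5, namely sham or Glenn surgery on a vitamin A control diet, a vitamin A deficient diet or a vitamin A excess diet. All groups share the wild-type genotype, the sort and the interval after surgery, and strain, sex and age are not given in the labels used here. The labels do not say that libraries came from separate animals, so the p-values measure the spread between these libraries.

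Before a cell copies its DNA, the origin recognition complex with Cdc6 and Cdt1 loads rings of Mcm2 to Mcm7 onto origins, a step called licensing. At the start of S phase these rings are turned into working helicases by Mcm10, Cdc45 and the GINS complex. DNA polymerase alpha and its primase then lay down primers, polymerases delta and epsilon extend them on the Pcna clamp, and Fen1 and Lig1 join the pieces of the lagging strand. Many of these genes are transcribed late in G1 by E2F factors, which are released when cyclin-dependent kinases phosphorylate the retinoblastoma protein. Most endothelial cells of an adult lung are quiescent, and endothelial division is a known part of vessel growth.

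The median library held 40 M estimated counts (M, mega), the smallest 22 M and the largest 77.6 M. Values are CPM, counts per M after TMM scaling of library totals, and they are not corrected for gene length, so levels are compared between libraries and not between genes. The library names fall into 2 number series, with 22 libraries in series A and 8 in series B. The class I histocompatibility gene RT1-CE16 was above 100 CPM in 13 libraries and below it in 17, and it split every group except sham on the excess diet. Endothelial markers were abundant, Pecam1 with a median of 1120 CPM in sham and 1069 CPM in Glenn libraries and Cdh5 with 2413 and 2076 CPM. The sort also held RNA of other cells. The summed level of 8 mural markers was 175 to 360 CPM in sham and 526 to 1788 CPM in Glenn libraries, with 8 of 8 higher on average after Glenn surgery, and that of 6 fibroblast markers was 1261 to 3240 against 1790 to 4676 CPM, with 6 of 6 higher. The sum of 6 type 2 epithelial markers was 36654 to 62862 against 25932 to 59018 CPM, with 0 of 6 higher, and that of 8 endothelial markers was 8173 to 10911 against 5803 to 8961 CPM, with 2 of 8 higher. Lymphatic endothelial markers summed to 558 to 1077 against 893 to 1496 CPM, with 4 of 4 higher. The 5 type 1 epithelial markers summed to 575 to 1003 against 671 to 1858 CPM, with 4 of 5 higher. Leukocyte markers, 8 of 9 of them in the table, summed to 13037 to 24469 against 8088 to 18891 CPM with 3 of 8 higher, and nearly all of that was Lyz2, which type 2 cells also make. The leukocyte antigen Ptprc had medians of 3.18 and 2.05 CPM, the T cell gene Cd3e had medians of 0.0817 and 0 CPM, and the macrophage gene Csf1r had medians of 17.4 and 31.3 CPM. The 4 mesothelial markers summed to 210 to 499 against 142 to 577 CPM (3 of 4 higher), and the 2 erythroid markers in the table, of 4 listed, to 2.09 to 10.8 against 2.88 to 195 CPM (2 of 2 higher). The part of these cells in the values below was not tested, and a change in the number of dividing cells cannot be told apart from a change in RNA per cell.

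Averaged over the 3 diets, 21 members rose and 2 fell after Glenn surgery, out of 38 (edgeR quasi-likelihood test, adjusted p under 0.05 over all genes, here the threshold for a call). Of all genes tested, 48.2% were called in this comparison, 23.4% as higher and 24.7% as lower, whereas 55.3% of the members were called higher and 5.26% lower. The members' median log2 change was 0.34, beside -0.01 for all genes, and 31 of 38 members had a change above 0. All 6 subunits of the MCM ring rose, as did the catalytic subunits of polymerases alpha and epsilon, the ligase, both ribonucleotide reductase subunits, the chromatin assembly factor and both E cyclins. Gins2 and the flap nuclease Fen1 fell, and the clamp Pcna and the loader subunits Rfc2 to Rfc5 did not pass the threshold. Only 2 members, Mcm6 and Pola1, were higher in each of the 15 Glenn libraries than in any of the 15 sham libraries, an arrangement that 3.1% of all genes showed. None was lower in every Glenn library, as 2.73% of all genes were. Of the 23 calls, 19 held whichever single library was left out, and the 4 others are named with their roles below. Among the 17 libraries low in RT1-CE16 alone, 18 members passed and the median was 0.31.

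**Figure D1:**
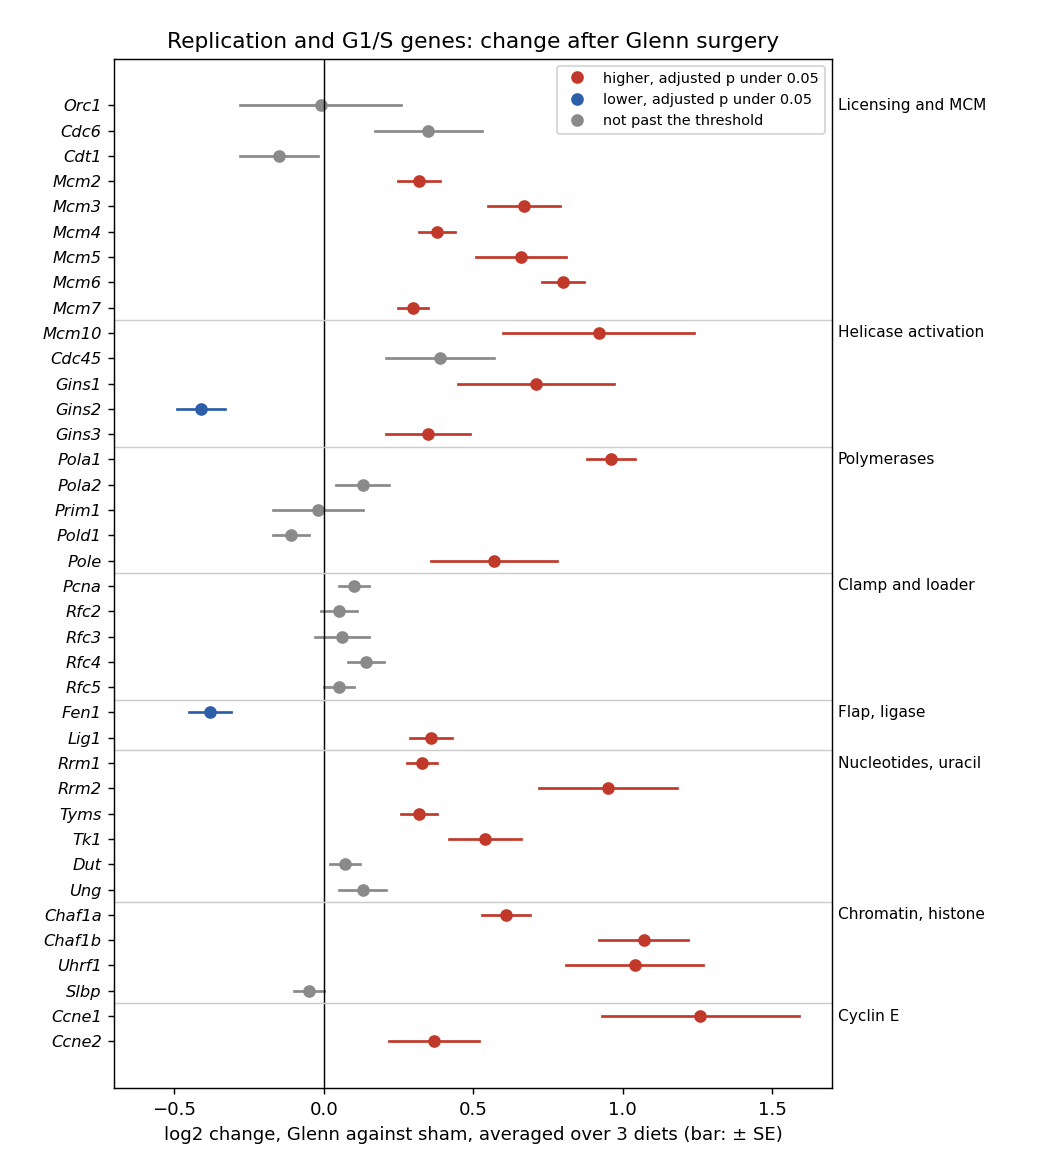
Change of each member after Glenn surgery, averaged over 3 diets, as log2 change on the horizontal axis with bars of ± SE, grouped by role. The 6 MCM subunits lie to the right of 0, Gins2 at -0.41 and Fen1 at -0.38 lie to the left, and the clamp and loader genes lie between 0.05 and 0.14.

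Promoters of members that rose together are shown beside those of a member that fell and a member that did not pass. Many S-phase genes carry an E2F site near their start. The printed promoters are examples, and members that differ from them are named below. Sequences are RefSeq's for GRCr8, a build other than that of the expression table, and run 5′ to 3′ on the gene's strand from 250 bases before to 50 bases after the start, which falls within the printed run. The table gave promoters for 33 of the 39 listed members. An E2F site was searched for as TTTCCCGC, TTTCGCGC, TTTGCCGC or TTTGGCGC on both strands, and capitals mark each match. Mcm6 (chr13:42404303-42404602, minus strand) holds matches that begin at -139 and -135 and overlap. Mcm2 (chr4:122918045-122918344, minus strand) also holds an overlapping pair, at -14 and -10. Mcm5 (chr19:13488563-13488862, plus strand) holds an overlapping pair at -213 and -209 and a further match at -8. Pola1 (chrX:62342306-62342605, minus strand) holds a match at -172, and Tyms (chr9:120776034-120776333, minus strand) at -37. Gins2 (chr19:65548003-65548302, minus strand) and Pcna (chr3:139955771-139956070, minus strand) hold none of these letters in the window.
Mcm6: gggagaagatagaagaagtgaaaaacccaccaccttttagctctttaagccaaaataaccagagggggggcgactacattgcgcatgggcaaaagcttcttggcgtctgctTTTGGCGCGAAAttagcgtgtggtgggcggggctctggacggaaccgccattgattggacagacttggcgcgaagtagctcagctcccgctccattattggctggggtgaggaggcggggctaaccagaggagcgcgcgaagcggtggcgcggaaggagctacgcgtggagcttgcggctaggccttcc
Mcm2: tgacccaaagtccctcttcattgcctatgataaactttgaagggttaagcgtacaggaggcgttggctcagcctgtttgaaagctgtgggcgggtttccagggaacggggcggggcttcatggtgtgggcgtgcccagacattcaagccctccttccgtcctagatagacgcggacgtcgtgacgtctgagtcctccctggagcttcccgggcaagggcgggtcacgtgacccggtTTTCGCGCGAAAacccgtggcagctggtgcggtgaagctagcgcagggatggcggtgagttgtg
Mcm5: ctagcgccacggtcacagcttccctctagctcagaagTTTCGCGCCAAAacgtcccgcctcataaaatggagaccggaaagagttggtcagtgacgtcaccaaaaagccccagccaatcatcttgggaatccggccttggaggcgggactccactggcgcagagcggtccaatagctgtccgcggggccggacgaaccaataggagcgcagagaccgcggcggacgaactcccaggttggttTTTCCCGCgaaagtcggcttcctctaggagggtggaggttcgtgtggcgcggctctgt
Pola1: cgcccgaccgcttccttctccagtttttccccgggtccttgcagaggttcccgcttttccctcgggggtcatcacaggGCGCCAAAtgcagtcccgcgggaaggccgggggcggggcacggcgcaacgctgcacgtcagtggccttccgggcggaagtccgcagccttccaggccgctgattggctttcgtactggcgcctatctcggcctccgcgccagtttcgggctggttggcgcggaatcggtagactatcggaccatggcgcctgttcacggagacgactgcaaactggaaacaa
Tyms: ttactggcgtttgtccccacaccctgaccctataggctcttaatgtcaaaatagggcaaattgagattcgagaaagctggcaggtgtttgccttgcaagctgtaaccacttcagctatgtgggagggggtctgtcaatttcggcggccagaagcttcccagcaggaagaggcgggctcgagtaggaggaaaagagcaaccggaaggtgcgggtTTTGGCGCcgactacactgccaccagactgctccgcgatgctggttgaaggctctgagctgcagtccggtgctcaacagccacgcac
Gins2: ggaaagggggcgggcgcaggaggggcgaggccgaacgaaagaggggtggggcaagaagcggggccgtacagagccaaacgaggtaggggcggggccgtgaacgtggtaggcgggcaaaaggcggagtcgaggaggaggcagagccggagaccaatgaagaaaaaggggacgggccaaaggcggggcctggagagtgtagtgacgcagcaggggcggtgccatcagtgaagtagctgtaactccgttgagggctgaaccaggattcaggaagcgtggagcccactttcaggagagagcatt
Pcna: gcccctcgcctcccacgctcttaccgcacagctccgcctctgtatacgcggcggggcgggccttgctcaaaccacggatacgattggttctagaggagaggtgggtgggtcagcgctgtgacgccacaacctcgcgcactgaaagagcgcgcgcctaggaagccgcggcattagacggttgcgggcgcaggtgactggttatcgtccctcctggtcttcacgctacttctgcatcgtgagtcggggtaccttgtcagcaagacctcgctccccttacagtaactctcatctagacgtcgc

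An E2F site by these letters stood at 1 or more listed starts of 16 of 33 members (48.5%), against 2.14% of the 33469 promoters in the table. Shares of members and of mitosis genes are by gene, and shares of all promoters are by single start. Uhrf1 has 3 listed starts and Dut has 2. The site was present in 12 of 18 members that rose, in 0 of 2 that fell and in 4 of 13 that did not pass the threshold. Those that held it without passing were Cdt1, Rfc3, Ung and Slbp. Mcm10, Rrm1, Tk1, Chaf1a, Chaf1b and Ccne1 rose and did not hold it by these letters. Other forms of the site were not searched for. Of 25 mitosis genes with a promoter, 1 held it. The CHR element, searched as TTTGAA or TTCGAA on both strands and known from genes expressed in G2 and mitosis, stood in 8 of 33 members (24.2%), near the 19.7% of all promoters, and in 19 of 25 mitosis genes (76%). The CCAAT box, searched as CCAAT on both strands, stood in 19 of 33 members (57.6%) and in 37.5% of all promoters. Orc1, Cdc6, Mcm4, Rrm2, Ccne2 and E2f1 had no promoter matched. A match is a description of these letters in this window only.

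Of 9 licensing genes, 6 rose and 0 fell averaged over diets. The 6 ring subunits rose by 0.30 to 0.80 on the log2 scale, and the loading factors Orc1, Cdc6 and Cdt1 did not pass the threshold. The difference between ring and loaders was not tested, and the change of Cdc6 (0.35, SE 0.18) was no smaller than those of Mcm2 and Mcm7. For Mcm6 (ENSRNOG00000003703), a subunit of the ring, sham libraries on the control diet held 22.6, 22.2, 22.3, 19.3 and 22.5 CPM and Glenn libraries 44.8, 33.9, 29.8, 35.8 and 33.6 CPM. On the deficient diet the sham libraries had 23.2, 20.6, 25, 18.5 and 21.4 CPM and the Glenn libraries 32.6, 46.1, 47.7, 42.1 and 39.3 CPM. On the excess diet the values were 20.7, 25.5, 17.1, 25.7 and 26.4 CPM and 40.1, 35, 41.6, 37.8 and 40.5 CPM. No Glenn library came down to any sham library, on any diet. Averaged over diets, Mcm6 stood 1.74-fold higher (log2 change 0.80, SE 0.07, edgeR adjusted p 6.83e-11). Mcm2, another ring subunit, moved less. Its sham libraries held 26.2, 26.4, 26.4, 20.5 and 22.5 CPM with the control, 23.1, 24.9, 26.9, 19.9 and 23.4 CPM with the deficient and 19.3, 28.5, 18.5, 24.4 and 27.1 CPM with the excess diet. Its Glenn libraries held 33.1, 26, 25.8, 27.2 and 27.8 CPM with the control, 28.8, 35.1, 35.9, 29.2 and 27.1 CPM with the deficient and 31.7, 23.3, 29.2, 32.7 and 32.8 CPM with the excess diet. The groups were apart on the deficient diet and overlapped on the other two, and 9 of 15 Glenn libraries lay above the highest sham library (log2 change 0.32, SE 0.07, edgeR adjusted p 0.000458). Among RT1-CE16-low libraries alone the Mcm2 call was lost (0.27, edgeR adjusted p 0.0519). The remaining 4 subunits rose with partial overlap. Mcm3 had a sham median of 9.38 CPM and a Glenn median of 12.9 CPM (log2 change 0.67, SE 0.12, edgeR adjusted p 2.29e-05), and 12 of 15 Glenn libraries lay above the highest sham library. Mcm4 had medians of 20.6 and 27.3 CPM (log2 change 0.38, SE 0.06, edgeR adjusted p 1.30e-05). Mcm5 had medians of 4.87 and 7.17 CPM (log2 change 0.66, SE 0.15, edgeR adjusted p 0.000432). Mcm7 varied little within groups and had medians of 31.7 and 39.4 CPM (log2 change 0.30, SE 0.05, edgeR adjusted p 6.16e-06).

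The origin-binding subunit Orc1 was scarce, at 0.354 to 1.41 CPM (median 0.655) after sham and 0.206 to 1.39 CPM (median 0.781) after Glenn surgery, with whole counts of 11 to 53 per library. Its ranges lay over each other, and its change was near 0 (log2 change -0.01, SE 0.27, edgeR adjusted p 0.986). The loader Cdc6 held 0.79 to 2.79 CPM (median 1.69) after sham and 1.15 to 4.36 CPM (median 1.74) after Glenn surgery. Only Glenn libraries on the deficient diet, replicates 2 and 3 with 3.81 and 4.36 CPM, rose above the highest sham library, and the averaged change missed the threshold (log2 change 0.35, SE 0.18, edgeR adjusted p 0.0977). Without replicate 1 of sham on the excess diet, Cdc6 passed (0.43, adjusted p 0.0422). The loader Cdt1 held 2.86 to 5.95 CPM (median 4.45) after sham and 2.82 to 6.83 CPM (median 3.77) after Glenn surgery (log2 change -0.15, SE 0.13, edgeR adjusted p 0.341), and its change was below 0 on each of the 3 diets.

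Of 5 helicase activation genes, 3 rose and 1 fell. Mcm10, which acts in turning on the loaded helicase, Gins1 and Gins3 rose, Gins2 fell, and Cdc45 did not pass. Gins2 (ENSRNOG00000017575), a subunit of the 4-part GINS complex, held 10.7, 15.2, 12.2, 10.5 and 9.29 CPM in sham libraries on the control diet and 9.8, 6.75, 7.83, 7.65 and 6.38 CPM in Glenn libraries. The values were 13.9, 11.1, 10.4, 11.7 and 12.4 against 11.2, 10.8, 9.02, 7.86 and 9.34 CPM on the deficient diet and 11.9, 17.3, 11.2, 12.5 and 12.6 against 10.4, 10.4, 9.12, 10.3 and 10.1 CPM on the excess diet. Glenn libraries were all below sham libraries on the excess diet, and the groups overlapped on the other two. Gins2 fell averaged over diets, to 0.75 of the sham level (log2 change -0.41, SE 0.08, edgeR adjusted p 8.73e-05). The other GINS subunits among the members went the other way. Gins1 held 0.146 to 1.41 CPM (median 0.636) after sham and 0.558 to 2.2 CPM (median 0.976) after Glenn surgery, on 5 to 84 counts per library (log2 change 0.71, SE 0.26, edgeR adjusted p 0.024). It lost its call without Glenn replicate 1 on the control diet (0.60, adjusted p 0.0541) or Glenn replicate 3 on the deficient diet (0.62, adjusted p 0.055). The Gins1 call was also lost in series A alone (0.86, adjusted p 0.0501) and among RT1-CE16-low libraries (0.78, adjusted p 0.16). Gins3 held 1.31 to 3.86 CPM (median 2.33) and 2.21 to 4.5 CPM (median 3.04) (log2 change 0.35, SE 0.14, edgeR adjusted p 0.0351), and its call was lost when any of 12 libraries was left out singly, with adjusted p up to 0.0731. Gins4, the subunit that is not a member, rose by 0.31 (SE 0.06, edgeR adjusted p 0.000229). Mcm10 was read from 2 to 80 counts per library, 0.0583 to 1.09 CPM (median 0.408) after sham and 0.315 to 1.6 CPM (median 0.849) after Glenn surgery (log2 change 0.92, SE 0.32, edgeR adjusted p 0.0176). The Mcm10 call was lost among series A libraries alone (0.99, adjusted p 0.0812) and among RT1-CE16-low libraries (1.12, adjusted p 0.0857). Cdc45, the helicase's partner protein, held 1.13 to 3.6 CPM (median 1.86) and 1.3 to 4.69 CPM (median 2.56), ranges that overlapped over most of their width (log2 change 0.39, SE 0.18, edgeR adjusted p 0.073), and it passed when any of 4 libraries was left out singly and without the series term (0.41, adjusted p 0.0486).

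Among the polymerases, Pola1 (ENSRNOG00000013322), the catalytic subunit of polymerase alpha, stood apart from the rest. It held 10.2, 12, 14.1, 13.6 and 14.2 CPM in sham and 30.8, 24, 21.6, 20.2 and 23.1 CPM in Glenn libraries on the control diet. On the deficient diet sham libraries had 12.2, 13.2, 12.3, 13.5 and 13.1 CPM and Glenn libraries 21.4, 28.5, 31, 24.4 and 22.3 CPM, and on the excess diet 9.91, 13.4, 13.9, 10.2 and 12 and 23.3, 18.4, 29.4, 24.2 and 23.3 CPM. The highest sham library had 14.2 CPM and the lowest Glenn library 18.4 CPM, so the ranges did not meet. Pola1 was 1.94-fold higher averaged over diets (log2 change 0.96, SE 0.08, edgeR adjusted p 1.54e-11). Pola2, the accessory subunit of the same polymerase, held 4.69 to 11.2 CPM (median 8.63) after sham and 6.28 to 12.6 CPM (median 9.2) after Glenn surgery and did not pass (log2 change 0.13, SE 0.09, edgeR adjusted p 0.245). Pold1, the catalytic subunit of polymerase delta, held 12.7 to 17.2 CPM (median 15.6) and 10.8 to 17.1 CPM (median 13.7), with a change below 0 that did not pass either (log2 change -0.11, SE 0.06, edgeR adjusted p 0.123). Pole, the catalytic subunit of polymerase epsilon, held 0.577 to 2.77 CPM (median 1.92) and 1.22 to 6.24 CPM (median 2.29) (log2 change 0.57, SE 0.21, edgeR adjusted p 0.028). The Pole call was lost without Glenn replicate 1 on the control diet (0.49, adjusted p 0.0558), sham replicate 4 on the deficient diet (0.47, adjusted p 0.0535) or Glenn replicate 3 on the deficient diet (0.39, adjusted p 0.114). It was also lost in series A alone (0.40, adjusted p 0.193), with limma voom (0.42, adjusted p 0.092) and among RT1-CE16-low libraries (0.28, adjusted p 0.47). Glenn replicate 3 on the deficient diet held 6.24 CPM of Pole, the highest value of all 30.

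Prim1, the catalytic subunit of primase, showed 2 levels, and both were found in every group. There were 16 libraries at 16.8 to 24.9 CPM and 14 at 29.1 to 36.3 CPM, with no library between. Each group of 5 had 2 or 3 libraries at the higher level, so the averaged change was near 0 (log2 change -0.02, SE 0.15, edgeR adjusted p 0.925). The higher level was found in 7 of 13 RT1-CE16-high and 7 of 17 RT1-CE16-low libraries, and in 10 of 22 series A and 4 of 8 series B libraries. This split was seen after the values were examined, and no test was made on it.

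Pcna and the small loader subunits Rfc2 to Rfc5 were not called. Of these 5 genes, 0 passed the edgeR threshold, and 1, Rfc4, had an unadjusted p under 0.05, with changes of 0.05 to 0.14. Of all 16171 genes, 8686 had an unadjusted edgeR p under 0.05 in this comparison. Pcna, the sliding clamp, is among the more widely used proliferation markers. It held 142, 136, 114, 118 and 120 CPM in sham and 161, 162, 134, 144 and 128 CPM in Glenn libraries on the control diet. The corresponding values were 130, 141, 129, 129 and 153 and 149, 169, 132, 138 and 146 CPM on the deficient diet and 179, 173, 158, 153 and 156 and 191, 158, 136, 144 and 150 CPM on the excess diet. The groups overlapped on each diet, and sham libraries on the excess diet were as high as Glenn libraries (log2 change 0.10, SE 0.05, edgeR adjusted p 0.113). In series A libraries alone the averaged change of Pcna was 0.16 (adjusted p 0.0496). The loader that places the clamp on DNA has small subunits Rfc2 to Rfc5. Rfc2 held 15.1 to 22.4 CPM (median 19.2) after sham and 15.9 to 26 CPM (median 19.8) after Glenn surgery (log2 change 0.05, SE 0.06, edgeR adjusted p 0.543). Rfc3 held 6.18 to 10.3 CPM (median 8.3) and 6.36 to 10.5 CPM (median 8.58), nearly the same range (log2 change 0.06, SE 0.09, edgeR adjusted p 0.637). Rfc4 held 11.4 to 16 CPM (median 13.2) and 11.6 to 19.2 CPM (median 14.9), with 4 Glenn libraries above the highest sham library (log2 change 0.14, SE 0.06, edgeR adjusted p 0.0755). Rfc5 held 13.9 to 20.2 CPM (median 17.6) and 15.6 to 20.1 CPM (median 18.6) (log2 change 0.05, SE 0.05, edgeR adjusted p 0.395). Rfc4 passed when any of 3 libraries was left out singly, in series A alone (0.20, adjusted p 0.0431) and with DESeq2 (0.15, adjusted p 0.0473).

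The 2 genes that finish lagging-strand pieces moved in opposite directions. Fen1 (ENSRNOG00000020531), the nuclease that trims flaps, held 16.1, 14.9, 17.4, 16 and 16.1 CPM in sham and 10.7, 15.3, 13.2, 14.5 and 14.6 CPM in Glenn libraries on the control diet. On the deficient diet the values were 18.4, 17.6, 16.5, 15.8 and 21.9 and 10.3, 15.7, 17.1, 15 and 12.6 CPM, and on the excess diet 20.1, 27, 17.3, 21.3 and 19.7 and 15.1, 13.9, 14.7, 14 and 14.2 CPM. Glenn libraries were all below sham libraries on the excess diet, and 10 of the 15 lay below the lowest sham library of any diet. Fen1 fell averaged over diets (log2 change -0.38, SE 0.07, edgeR adjusted p 7.19e-05). Lig1, the ligase that seals the nicks, held 19.6 to 27.6 CPM (median 24.2) after sham and 25.7 to 38 CPM (median 31.3) after Glenn surgery, and 10 of 15 Glenn libraries lay above the highest sham library (log2 change 0.36, SE 0.07, edgeR adjusted p 4.37e-05).

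Of the 6 genes for nucleotide supply and uracil removal, 4 rose and 2 did not pass. Ribonucleotide reductase makes deoxyribonucleotides from a large subunit, Rrm1, and a small subunit that is made in S phase, Rrm2. Rrm1 held 31.5 to 42.8 CPM (median 36.6) after sham and 41 to 56.5 CPM (median 45.6) after Glenn surgery, with 13 of 15 Glenn libraries above the highest sham library (log2 change 0.33, SE 0.05, edgeR adjusted p 3.66e-06). Rrm2 varied much more between libraries. It held 6.31, 7.91, 7.35, 4.37 and 2.63 CPM in sham and 16.1, 5.86, 5.65, 6.3 and 4.95 CPM in Glenn libraries on the control diet, and 4.89, 2.62, 8.98, 3.8 and 5.91 against 6.9, 18.6, 21.1, 7.89 and 5.43 CPM on the deficient diet. On the excess diet the values were 4.98, 4.03, 2.18, 5.57 and 6.26 against 11.8, 8.19, 13, 10.1 and 9.4 CPM, and only there did the groups not overlap. High values on the other diets came from Glenn replicate 1 on the control diet and Glenn replicates 2 and 3 on the deficient diet. Rrm2 was 1.93-fold higher averaged over diets (log2 change 0.95, SE 0.23, edgeR adjusted p 0.0013). Tyms, thymidylate synthase, held 19.4 to 28.6 CPM (median 24.3) and 20.7 to 36 CPM (median 29) (log2 change 0.32, SE 0.06, edgeR adjusted p 0.000121), and Tk1, the S-phase thymidine kinase, held 2.97 to 6.78 CPM (median 4.79) and 4.79 to 11.6 CPM (median 7.69) (log2 change 0.54, SE 0.12, edgeR adjusted p 0.000541). Dut, which keeps uracil out of DNA by cleaving dUTP, held 19.3 to 24.3 CPM (median 21) and 18 to 27.9 CPM (median 22.7) (log2 change 0.07, SE 0.05, edgeR adjusted p 0.224). Ung, which removes uracil from DNA, held 8.86 to 17.9 CPM (median 13.4) and 11.9 to 17.1 CPM (median 14.5) (log2 change 0.13, SE 0.08, edgeR adjusted p 0.175).

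Genes that rebuild chromatin behind the fork rose, and the histone mRNA binder did not pass. Chaf1a, the large subunit of chromatin assembly factor 1, held 6.43, 5.88, 5.63, 4.56 and 5.18 CPM in sham and 11.4, 7.15, 8.55, 7.83 and 6.38 CPM in Glenn libraries on the control diet. The values were 6.23, 6.38, 5.62, 4.19 and 6.31 and 8.26, 10.7, 11.3, 8.92 and 9.51 CPM on the deficient diet, and 6.79, 6.18, 5.42, 6.27 and 6.41 and 8.29, 8.94, 7.67, 9.79 and 7.23 CPM on the excess diet. The control-diet groups touched at a single Glenn library, replicate 5, and the groups were apart on the other two diets (log2 change 0.61, SE 0.08, edgeR adjusted p 5.37e-07). Chaf1b, a smaller subunit of the same factor, held 0.926 to 2.5 CPM (median 1.78) after sham and 1.77 to 5.48 CPM (median 3.86) after Glenn surgery, and 12 of 15 Glenn libraries were above the highest sham library (log2 change 1.07, SE 0.15, edgeR adjusted p 9.55e-07). Uhrf1, which guides maintenance DNA methylation to new DNA, held 1.12 to 4.76 CPM (median 3.39) and 2.38 to 11.3 CPM (median 5.44) (log2 change 1.04, SE 0.23, edgeR adjusted p 0.000367). Slbp, which binds the end of histone mRNAs, held 74.5 to 115 CPM (median 89.6) and 72 to 108 CPM (median 83.7) and overlapped throughout (log2 change -0.05, SE 0.05, edgeR adjusted p 0.377).

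The E cyclins, which activate Cdk2 at the start of S phase, both rose averaged over diets. Ccne1 had 0 to 40 counts per sham library and 5 to 74 per Glenn library. Its values were 0.353, 0.707, 0, 0.194 and 0.13 CPM in sham and 0.131, 0.825, 0.721, 0.686 and 0.607 CPM in Glenn libraries on the control diet. They were 0.284, 0.175, 0.439, 0.192 and 0.112 and 0.452, 1.46, 1.01, 0.671 and 0.869 CPM on the deficient diet, and 0.702, 0.559, 0.627, 0.49 and 0.497 and 1.54, 0.873, 0.654, 0.955 and 0.793 CPM on the excess diet. The groups were apart on the deficient diet, and Glenn replicate 1 on the control diet was as low as sham libraries there, although it was high for most other members. The averaged change of Ccne1 was the largest of the 38 (log2 change 1.26, SE 0.33, edgeR adjusted p 0.00219). Ccne2 held 3 to 7.61 CPM (median 5.2) after sham and 3.87 to 9.38 CPM (median 6.92) after Glenn surgery, close to the threshold (log2 change 0.37, SE 0.15, edgeR adjusted p 0.0469). That call was lost when any of 15 libraries was left out singly, with limma voom (0.24, adjusted p 0.212) and with the replicate block (0.37, adjusted p 0.0666). It was also lost with no low-count filter (0.37, adjusted p 0.0561) and among RT1-CE16-low libraries (0.53, adjusted p 0.0887).

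**Figure D2:**
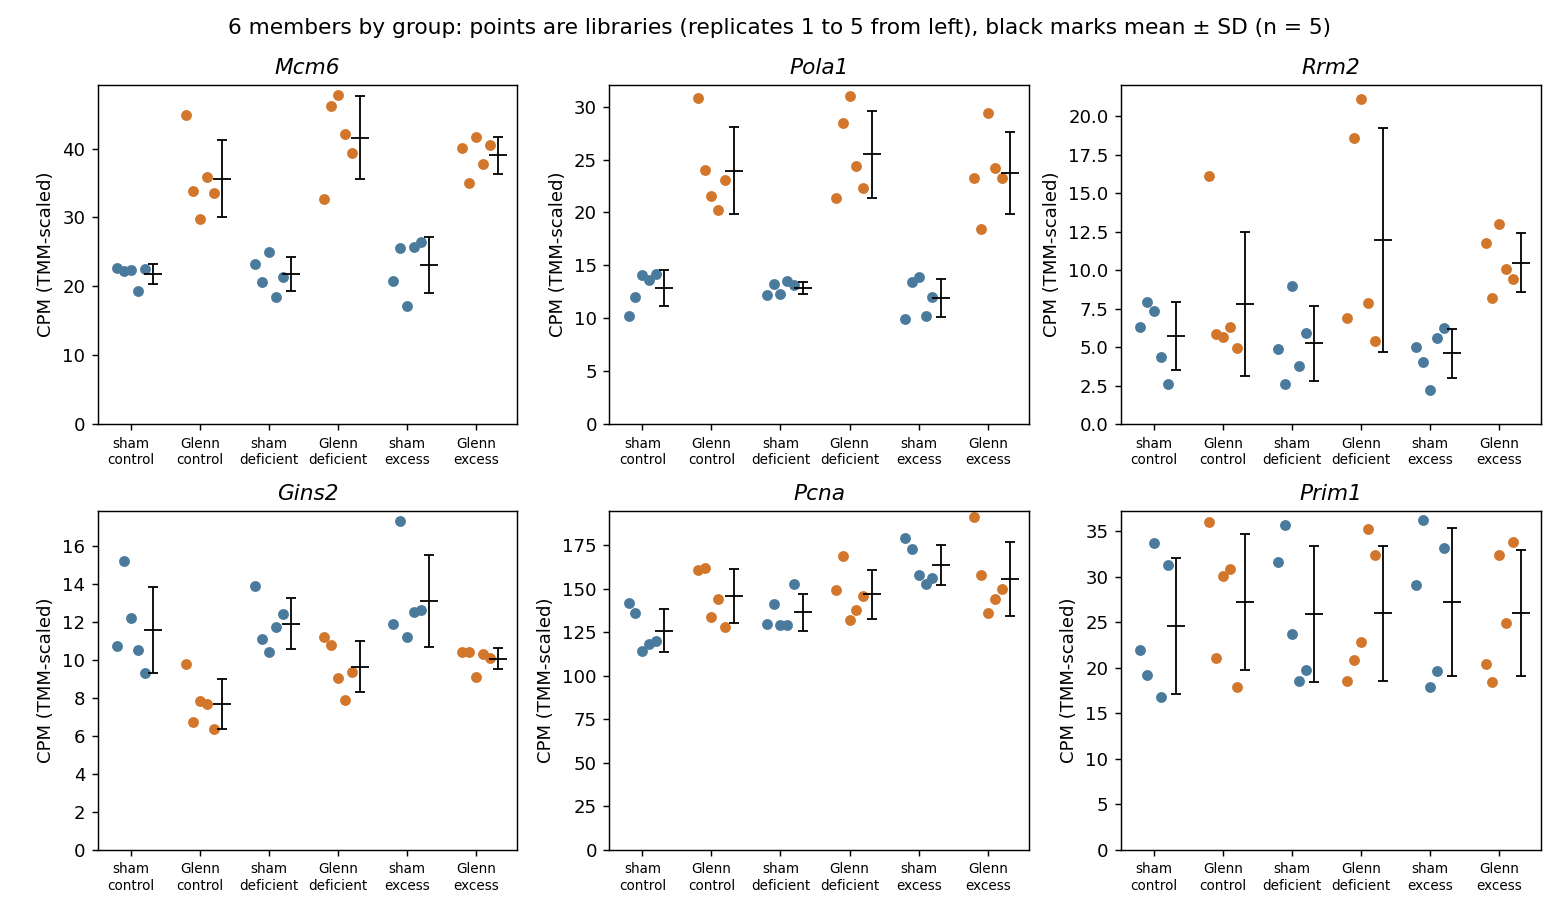
CPM of 6 members in each library, by group (blue sham, orange Glenn), with the mean ± SD of 5 libraries in black. Mcm6 and Pola1 separate the operations on each diet, Rrm2 has a few high Glenn libraries, Gins2 is lower after Glenn surgery, Pcna overlaps, and Prim1 has 2 levels in every group.

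Diet by diet, 8 members passed on the control diet, 7 higher and 1 lower, out of 38, when 24.9% of all genes were called (11.8% higher, 13.1% lower). The share of members called higher was 18.4%, and their median log2 change was 0.22 against -0.01 for all genes. Those that rose were Pola1 (0.90, SE 0.13, edgeR adjusted p 4.35e-06), Mcm6 (0.71, SE 0.12, edgeR adjusted p 2.83e-05), Mcm7, Chaf1a, Mcm4, Lig1 and Mcm3, and Gins2 fell (-0.60, SE 0.13, edgeR adjusted p 0.00127). Mcm6, Mcm7 and Pola1 were higher in all 5 Glenn than in all 5 sham libraries, an arrangement shown by 7.78% of all genes, and 0 members were lower in this way, beside 9.41%. Without Glenn replicate 1, 5 members passed, and Mcm3, Mcm4 and Lig1 were lost.

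On the deficient diet 14 members passed, 13 higher and Fen1 lower, when 27.4% of all genes were called (13.7% higher, 13.7% lower). Of the members, 34.2% were called higher, and the median change was 0.42 against -0.01. The largest changes were in Ccne1 (1.81, SE 0.59, edgeR adjusted p 0.0228), Chaf1b (1.49, SE 0.27, edgeR adjusted p 7.94e-05), Uhrf1 (1.47, SE 0.42, edgeR adjusted p 0.00885), Mcm5 (1.02, SE 0.26, edgeR adjusted p 0.00358) and Pola1 (1.00, SE 0.13, edgeR adjusted p 1.10e-06). Of the 14 calls, 5 were lost when some single library was left out. These were Ccne1 (4 libraries, adjusted p 0.0503 to 0.0658), Tk1 (7 libraries, up to 0.168), Fen1 (5 libraries, up to 0.108), Mcm7 (3 libraries, up to 0.0775) and Mcm3 (1 library, Glenn replicate 2, 0.0572). The groups did not overlap for 10 members, Mcm2, Mcm3, Mcm6, Pola1, Lig1, Rrm1, Chaf1a, Chaf1b, Uhrf1 and Ccne1, all higher after Glenn surgery, beside 10% of all genes, and for 0 that were lower, beside 9.59%. The members' median change was larger in the fit of series A than in that of series B. The median was 0.54 and 12 members passed in series A alone, and 0.12 with 5 members in series B alone, where Mcm5 (0.57, adjusted p 0.382), Uhrf1 (0.66, adjusted p 0.31) and Tk1 (0.10, adjusted p 0.826) did not pass. On this diet series A held 2 sham and 3 Glenn libraries, and series B 3 sham and 2 Glenn. Shares of all genes called in these fits are not given here, so fewer calls are not read as a weaker response of the members. Glenn replicates 2 and 3, the highest of their group for 11 and 19 members, are in series A. On this diet the series B libraries are also the RT1-CE16-high ones, and the difference between series was not tested.

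On the excess diet 12 members passed, 11 higher and Fen1 lower, when 21.9% of all genes were called (11.6% higher, 10.4% lower). The share called higher was 28.9%, and the median change 0.34 against -0.02. Those that rose most were Rrm2 (1.26, SE 0.45, edgeR adjusted p 0.0462), Chaf1b (1.22, SE 0.29, edgeR adjusted p 0.00245), Pola1 (0.97, SE 0.15, edgeR adjusted p 1.01e-05), Mcm3 (0.81, SE 0.23, edgeR adjusted p 0.00927) and Mcm6 (0.75, SE 0.13, edgeR adjusted p 7.16e-05). The Rrm2 call was lost for 9 of the 10 libraries when they were left out in turn. The groups did not overlap for 10 members that were higher, beside 8.59% of all genes, and for Gins2 and Fen1, which were lower, beside 7.75%. Series was not balanced here, with 0 of the 5 sham and 3 of the 5 Glenn libraries in series B. The fit corrects for series by a term that all 6 groups share. Series A alone, with 5 sham and 2 Glenn libraries, gave 6 members and a median of 0.22. A fit of only the groups compared gave 6 members and a median of 0.22. Its series term takes up the 3 series B Glenn libraries, so it rests on the series A contrast and is no separate check.

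Across diets, Mcm3, Mcm6, Mcm7, Pola1 and Chaf1a passed on all 3, 6 members on 2 diets, 7 on 1 diet and 20 on none. Of all genes, 24.9%, 27.4% and 21.9% were called on the control, deficient and excess diets. How many recurred across diets was not counted over all genes, so the recurrence is not read as particular to the members. The change was above 0 on all 3 diets for 26 members, below 0 on all 3 for Cdt1, Gins2, Fen1 and Slbp, and of differing sign for 8. Some of these calls were close to the threshold. On the control diet the Mcm3 call was lost when any of 5 libraries was left out singly (adjusted p 0.0507 to 0.206), in series A alone (adjusted p 0.0605) and with only the groups compared (adjusted p 0.0909). Every control-diet library is in series A, so the series A fit dropped none of those compared. Its change was 0.56, beside 0.55 in the main fit. On the excess diet Mcm3 was lost with the replicate block (0.66, adjusted p 0.0549), in series A alone (0.65, adjusted p 0.13) and with only the groups compared (0.64, adjusted p 0.0763). Chaf1a on the excess diet was lost in the same settings, with the replicate block at 0.43 (adjusted p 0.0808), in series A at 0.48 (adjusted p 0.0977) and with only the groups compared at 0.48 (adjusted p 0.1). Mcm7 was lost on the deficient diet when any of 3 libraries was left out singly (adjusted p 0.052 to 0.0775), and on the excess diet in series A (0.27, adjusted p 0.0894) and with only the groups compared (0.26, adjusted p 0.17). On the excess diet, series A alone and only the groups compared rest on the same contrast, so they are not separate checks. Mcm6 and Pola1 kept their calls on each diet under every alternative run. These 3 comparisons share no libraries, but 1 fit shares their estimate of spread and their term for library series.

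**Figure D3:**
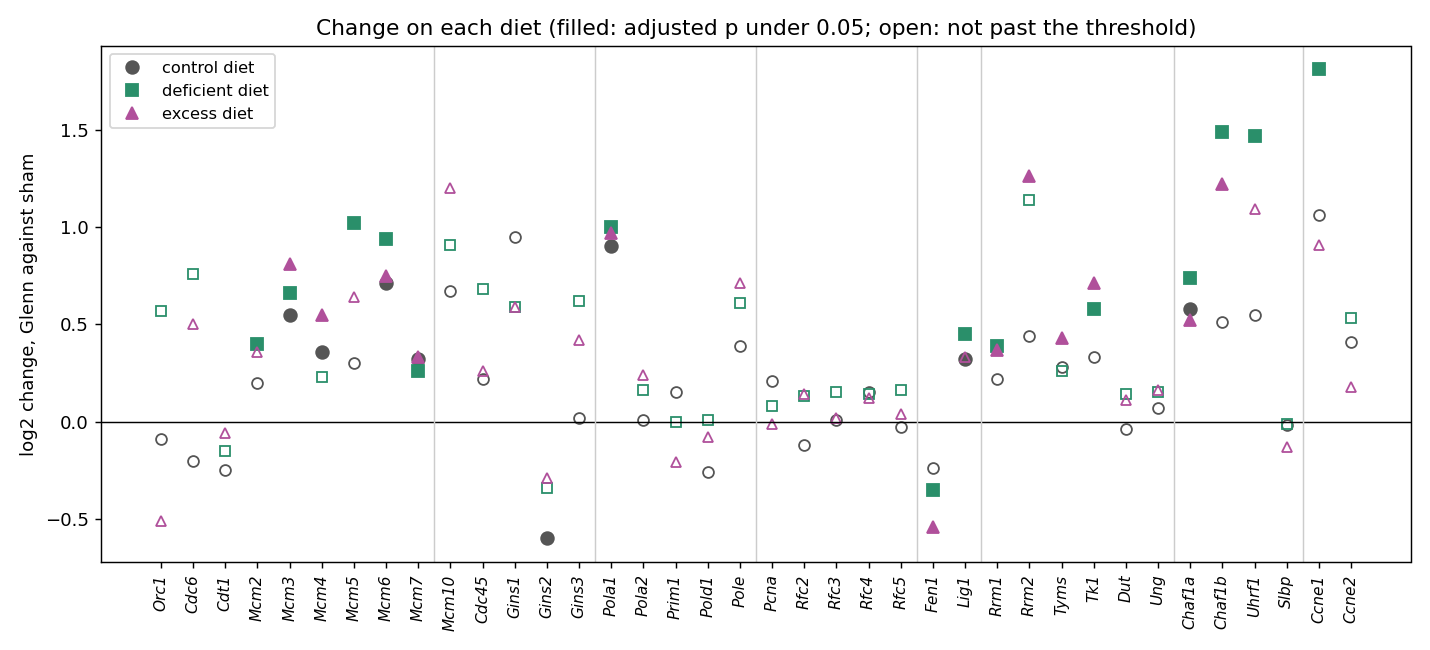
Log2 change after Glenn surgery for each member on the control (circles), deficient (squares) and excess diet (triangles), filled where the adjusted p is under 0.05. Pola1 lies between 0.90 and 1.00 on the 3 diets, and Chaf1b ranges from 0.51 to 1.49.

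Diet was also compared within each operation, to see whether vitamin A moved the same genes. After sham surgery, 0 of 38 members differed between the deficient and control diets with edgeR (0% of all genes called), and 0 with DESeq2 or limma voom. Mcm4 was the 1 member at an unadjusted edgeR p under 0.05, beside 844 of 16171 genes. After Glenn surgery, 0 differed between deficient and control (0.00618% of all genes), although 36 of 38 changes were above 0, with a median of 0.20 beside 0.01 for all genes. The unadjusted edgeR p was under 0.05 for 6 of 38 members and for 1598 of 16171 genes. Those 6 were Cdc6 (1.07, adjusted p 0.271), Chaf1b (0.63, adjusted p 0.406), Mcm5 (0.56, adjusted p 0.459), Pola2 (0.50, adjusted p 0.305), Gins2 (0.39, adjusted p 0.341) and Pold1 (0.29, adjusted p 0.33). DESeq2 and limma voom also called 0 there. Between the excess and control diets, 1 member passed, as higher, after sham surgery, when 0.241% of all genes did (0.155% higher, 0.0866% lower). That member was Pcna, with the libraries listed above (0.38, SE 0.08, edgeR adjusted p 0.047), and its call was lost when any of 8 libraries was left out singly (adjusted p 0.0509 to 0.179) and when the fit held RT1-CE16 level instead of the library series (0.30, adjusted p 0.356). All 5 sham libraries on the excess diet were low in RT1-CE16, against 2 of 5 on the control diet. After Glenn surgery 0 members differed between excess and control with edgeR (1.47% of all genes, 0.89% higher and 0.575% lower), 0 with DESeq2 and 1 with limma voom. The unadjusted edgeR p was under 0.05 for 2 of 38 members, Gins2 and Cdc6, and for 2254 of 16171 genes. The comparisons with the control diet after 1 operation share its control-diet libraries. No member passed the test of a different response to surgery between diets (edgeR, 0.00618% of all genes), and 0 did with DESeq2 and limma voom. Chaf1b was the 1 member at an unadjusted edgeR p under 0.05 (p 0.0324, adjusted p 0.835), beside 925 of 16171 genes.

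Single libraries carried part of the spread. Glenn replicate 1 on the control diet was the highest of its group for 21 of 38 members and for 28 of 29 mitosis genes. Sham replicate 3 on the excess diet was the lowest of its group for 26 members, Glenn replicate 2 on the excess diet the lowest for 20, and Glenn replicate 3 on the deficient diet the highest for 19. Members also differed in how much they varied within groups. The pooled SD of log2 values within groups was 0.13 for Mcm7, Rfc5, Rrm1 and Dut and 0.14 for Pcna and Slbp, 0.19 for Mcm6 and 0.21 for Pola1, but 0.65 for Rrm2, 0.66 for Uhrf1, 0.93 for Mcm10 and 0.96 for Ccne1. Mcm10 and Ccne1 were read from few counts, as given above.

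**Figure D4:**
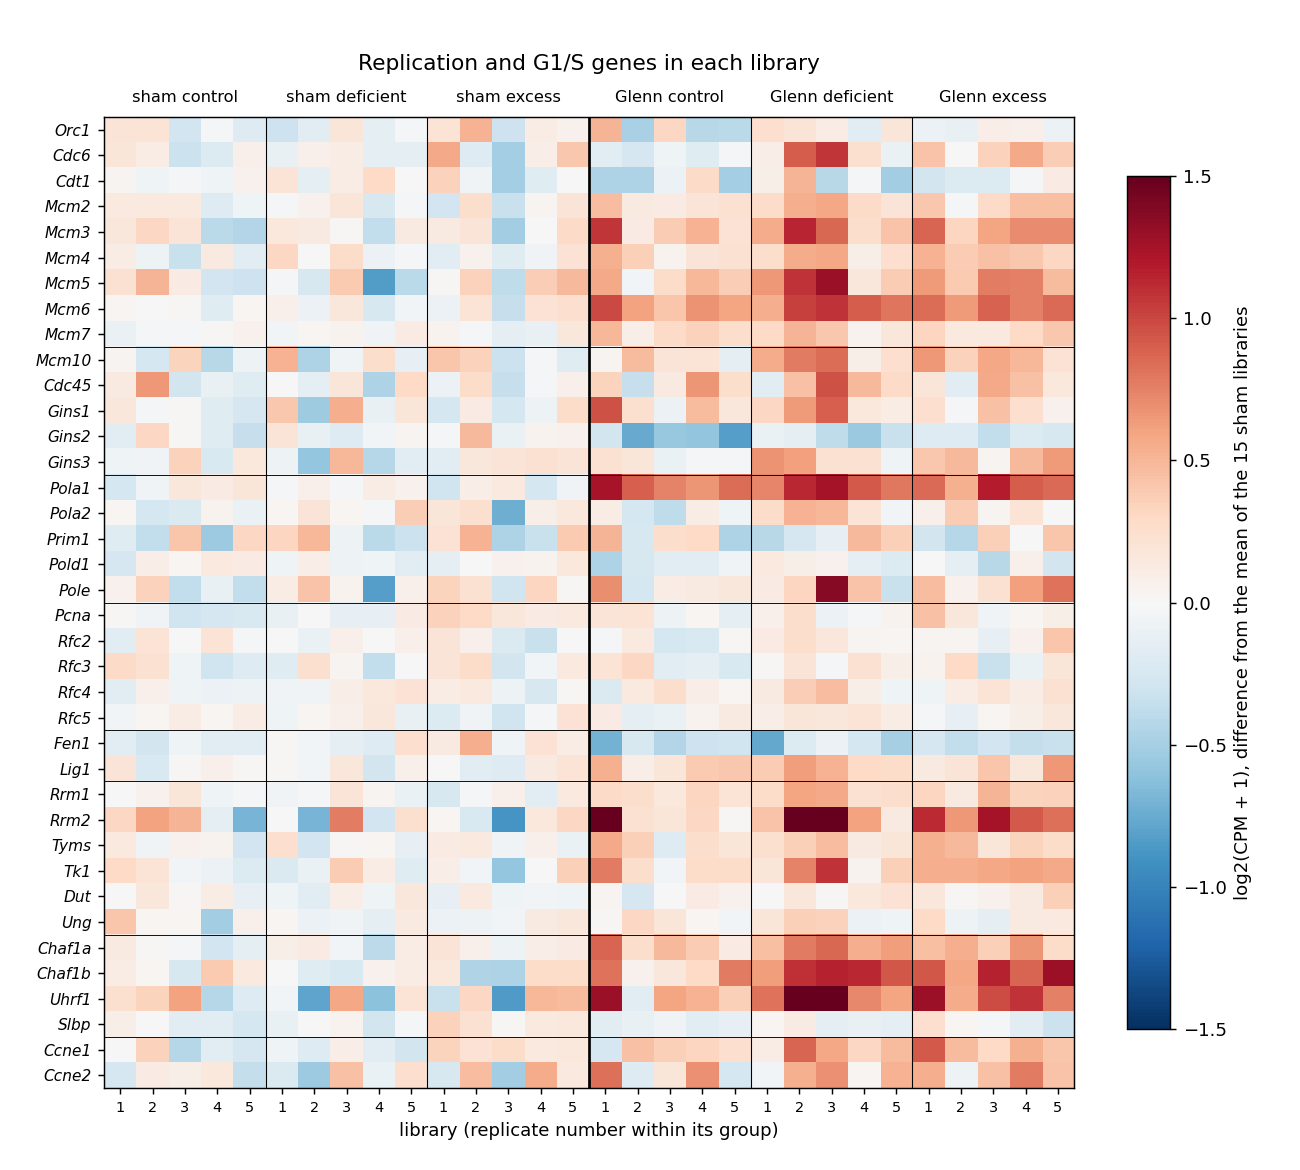
Each member (rows, by role) in each of 30 libraries (columns), as the difference of log2(CPM + 1) from the mean of the 15 sham libraries. Mcm6 and Pola1 are raised in every Glenn column, and the column of Glenn replicate 1 on the control diet is darker than its neighbours for most members.

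Other genes of the same processes, on lists of their own, are given for comparison. Of 33 further replication genes tested out of 34 listed, 13 rose (39.4%) and 5 fell (15.2%) averaged over diets, with a median change of 0.18. Of all genes, 23.4% rose and 24.7% fell in that comparison. On the control, deficient and excess diets taken singly, 9.09%, 0% and 0% of these genes were called higher, beside 11.8%, 13.7% and 11.6% of all genes. The shares called lower were 9.09%, 6.06% and 3.03%, beside 13.1%, 13.7% and 10.4%. By adjusted p, the first of those that rose were Gins4 and Pole3 (0.20, SE 0.05, edgeR adjusted p 0.00225), a small subunit of polymerase epsilon. The smallest adjusted p among those that fell were those of Rrm2b (-0.41, SE 0.06, edgeR adjusted p 1.10e-06), the reductase subunit used outside S phase, and Rfc1 (-0.16, SE 0.04, edgeR adjusted p 0.00112), the large subunit of the clamp loader. Rrm2b held 33.4 to 45.6 CPM (median 37.9) after sham and 19.2 to 32.4 CPM (median 30.3) after Glenn surgery, ranges that did not overlap.

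Of 23 genes that control G1, 6 rose (26.1%) and 8 fell (34.8%), with a median of 0.05. Of all genes, 23.4% rose and 24.7% fell, so these shares lie near the background. The D cyclins, partners of Cdk4 and Cdk6, went in both directions. Ccnd2 held 33.1 to 65.2 CPM (median 49.8) after sham and 70.7 to 132 CPM (median 102) after Glenn surgery, with no overlap (log2 change 1.09, SE 0.09, edgeR adjusted p 2.28e-11). Ccnd3 held 81.5 to 116 CPM (median 89) and 50.2 to 82 CPM (median 61.9) (-0.55, SE 0.05, edgeR adjusted p 5.65e-10), and Ccnd1 155 to 267 CPM (median 180) and 115 to 163 CPM (median 129) (-0.47, SE 0.06, edgeR adjusted p 3.02e-07). The Cdk4/6 inhibitor Cdkn2c rose (0.49, SE 0.09, edgeR adjusted p 6.87e-05). The p53 target and Cdk inhibitor Cdkn1a held 28.3 to 82.9 CPM (median 45.8) and 21.9 to 82.9 CPM (median 53.2) and did not pass (0.13, SE 0.16, edgeR adjusted p 0.528). E2f8, a repressor among the E2F factors that was chosen after its values were seen, held 0.0272 to 0.795 CPM (median 0.388) and 0.495 to 2.16 CPM (median 1.17) (1.64, SE 0.32, edgeR adjusted p 0.000107).

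Of 29 mitosis genes tested out of 30 listed, 25 rose (86.2%) and 0 fell, beside 23.4% and 24.7% of all genes. Their median change was 0.87, beside 0.34 for the replication members. Mki67, which codes for the antigen of dividing cells known as Ki-67, held 2.91 to 10.1 CPM (median 6.64) after sham and 6.34 to 20.5 CPM (median 10.7) after Glenn surgery (log2 change 0.87, SE 0.18, edgeR adjusted p 0.000224). Top2a, a topoisomerase that untangles chromosomes, held 1.63 to 9.01 CPM (median 5.35) and 4.2 to 20.3 CPM (median 8.49) (0.91, SE 0.26, edgeR adjusted p 0.00502). The smallest adjusted p-values were those of Anln, which acts in cytokinesis (0.92, SE 0.16, edgeR adjusted p 1.90e-05), and of the kinetochore gene Cenpf (1.23, SE 0.21, edgeR adjusted p 2.17e-05). On the control diet alone 2 mitosis genes passed, all higher (6.9%, below the 11.8% of all genes called higher there). On the deficient diet 18 passed, all higher (62.1%, beside 13.7%), and on the excess diet 7, all higher (24.1%, beside 11.6%). The difference between the lists was not tested.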

How the data were processed

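Values in the deposited table are Salmon's estimated counts for each gene, without normalization. Per the submitters' processing notes, FastQC, Trim Galore, Picard, STAR and Salmon were used with builds mRatBN7.2 and rn7, and versions are not given in the sources used here. The SMART-Seq kit marks no strand, so reads of overlapping antisense genes cannot be told apart.

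Of the values, 13.6% were not whole numbers, and they were rounded. All 30 sample columns were used, and 0 were left out. With edgeR 4.0.16 in R 4.3.3, genes were kept by filterByExpr (minimum count 10, minimum total 15, by group) and scaled by TMM. They were tested by glmQLFit (robust) and glmQLFTest in a fit of 6 groups plus the library series. P-values were adjusted by Benjamini-Hochberg over 16171 genes. Steps were tested on simulated data. Alternatives used limma 3.58.1 and DESeq2 1.42.0, and figures matplotlib 3.10.9.

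Members and lists were chosen with earlier results of these data known. Within each role, the members with the smallest and largest adjusted p in the averaged contrast are described in detail, with Mcm2, Pcna, Rrm2, Ccne1 and Ccne2. From other lists, 4 preset genes and up to 2 rising and 2 falling genes are named.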

Additional observations from a re-analysis of the deposited data

Results flagged for a closer look

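In 7 of 228 sets of 5 libraries, a library lay far from the other 4 for a member, past Dixon's critical value of 0.71 for the gap over the range, where chance gives about 1 in 20, or 11.4. Rrm2 in Glenn replicate 1 on the control diet was 16.1 CPM against 4.95 to 6.3 CPM in the others (0.879). In the same library Mcm2 was 33.1 CPM against 25.8 to 27.8 CPM (0.716). Mcm6 in sham replicate 4 on the control diet was low, at 19.3 CPM against 22.2 to 22.6 CPM (0.894). Gins2 was 17.3 CPM in sham replicate 2 on the excess diet against 11.2 to 12.6 CPM (0.771), and 9.12 CPM in Glenn replicate 3 on that diet against 10.1 to 10.4 CPM (0.776). Gins3 in sham replicate 1 on the excess diet was 2.07 CPM against 2.88 to 3.04 CPM (0.836). Pola2 in sham replicate 3 on the excess diet was 4.69 CPM against 9.03 to 10.2 CPM (0.786).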

How the results depend on the processing

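Averaged over diets, the count of members past the threshold was 23, and it was 18 to 24 under every alternative run, 20 to 23 with single libraries left out. With a replicate block it was 22, and 11, 15 and 8 on the control, deficient and excess diets, against 8, 14 and 12 without the block. The block ended 1 averaged call, that of Ccne2. Residuals of same-numbered libraries had a median correlation of 0.123, with 40 of 75 pairs over 0.1, against -0.04 and 73 of 300 for other numbers. These residuals were not corrected for library series, and series B libraries carry only replicate numbers 3 to 5. The correlations therefore cannot tell pairing apart from series. The labels give no pairing, so the numbers were not taken to pair the samples, and the block is given as an alternative. On the control diet the count was 5 to 11 with single libraries left out, 2 in RT1-CE16-low and 3 in RT1-CE16-high libraries. On the deficient diet it was 10 to 16, 5 in series B alone and 4 in RT1-CE16-high libraries, where the median change was 0.12. On the excess diet it was 10 to 14. It was 6 in series A alone and 6 with only the groups compared, which here rests on the same contrast. In RT1-CE16-low libraries it was 3. These within-level and series B fits, chosen after seeing the data, have fewer samples. For them and for the series A fits, the shares of all genes called are not given here. The single call for excess against control after sham became 0 without the series term, in series A and with RT1-CE16 as term. It was also 0 with no filter, with only the groups compared and in RT1-CE16-low libraries. With voom it was 2, and with libraries left out 0 to 1. Both groups lie wholly in series A, so the series A fit dropped none of their libraries. After Glenn that comparison gave 1 with voom and 0 to 1 with libraries left out, and 1 without Glenn replicate 1 on the control diet. The sign turned for 3 members near 0. Orc1 became 0.01 without the series term, 0.15 in series A and in RT1-CE16-low libraries, 0.02 with RT1-CE16, 0.01 with DESeq2 size factors and 0.00 with DESeq2, and -0.17 to 0.08 with libraries left out. Prim1 became 0.03 and 0.01 without the series term and with RT1-CE16, and -0.08 to 0.03 with libraries left out. Slbp was 0.01 in series A. The causes were not tested. Mcm10, Gins1, Ccne1 and Orc1 are limited by depth, with under 100 counts per library.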
